A study of Mus musculus with 29 samples.

Results

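The kappa variable (Igkv) segments are the genes of the mouse antibody light chain locus whose symbol begins with Igkv and a family number, and all 107 of them among the 13982 genes of the table were taken, whatever their level. They were read in 14 libraries of lupus-prone NZB/W mice, the F1 offspring of New Zealand black and New Zealand white mice, and each segment and family is described as a share of the Igkv reads of its library, by tissue and by mouse. Proteinuric mice gave 4 libraries of kidney tissue (mice H6, H20, H115 and H117, aged 39, 36, 25 and 32 weeks), 3 of tertiary lymphoid structures (TLS) cut out of the kidney by hand under magnification (H6, H20 and H115), and 3 of lymph node (H6, H20 and H117). Lymph nodes also came from 3 mice with anti-dsDNA antibodies (D10, D11 and L25, aged 28, 29 and 18 weeks) and from 1 young mouse (C45, aged 4 weeks). The kidney tissue and the TLS of a mouse came from the same kidney, and a macrodissected TLS can carry kidney tissue along. RNA of the antibody-positive nodes was extracted with a miRNeasy kit and that of all other tissues with TRIzol, so stage and extraction cannot be told apart among the nodes. Each library comes from a separate mouse within its tissue. The 15 whole kidney libraries of the series are not analysed here.

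Each B cell that uses a kappa chain joins 1 variable segment to 1 joining segment (Igkj) of the locus, and the joined exon is spliced to the constant exon (Igkc). The variable segment encodes most of the part of the light chain that touches antigen, and its last bases, with the joining segment, make the third hypervariable loop. The segment reads of a tissue thus reflect which B cells and plasma cells are present and how much antibody RNA each holds, and in these libraries of whole tissue fewer cells and less RNA per cell cannot be told apart. Germline numbering gives the family first and then the position, counted from the joining segments outward, so that Igkv3-2 lies close to the joining segments and Igkv2-137 at the far end.

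Of the 107 segments, 101 were found by symbol in the GENCODE M21 annotation of GRCm38, the build of the table, all on chromosome 6, with 61 on the minus and 40 on the plus strand. They fall into 19 families, of which family 4 is the largest with 30 segments, followed by family 1 with 12 and families 3 and 8 with 10 each. The annotation calls 6 of the 101 pseudogenes, and these took 321 of 308653 Igkv reads (0.104%). The coding V exons of 4 segments are shown here, Igkv5-39 because it led most lymph nodes and Igkv3-2, Igkv3-4 and Igkv17-127 because each was high in every library of 1 proteinuric mouse, from the annotation's transcripts, 5′ to 3′ and up to their last 300 bases, with capitals from the conserved cysteine codon to the exon's end, 26 germline bases with which the third hypervariable loop begins. Igkv5-39 is given from chr6:69900424-69900710 on the minus strand, Igkv3-2 from chr6:70698768-70699067 on the plus strand, Igkv3-4 from chr6:70672078-70672377 on the plus strand and Igkv17-127 from chr6:67861374-67861659 on the plus strand.
Igkv5-39: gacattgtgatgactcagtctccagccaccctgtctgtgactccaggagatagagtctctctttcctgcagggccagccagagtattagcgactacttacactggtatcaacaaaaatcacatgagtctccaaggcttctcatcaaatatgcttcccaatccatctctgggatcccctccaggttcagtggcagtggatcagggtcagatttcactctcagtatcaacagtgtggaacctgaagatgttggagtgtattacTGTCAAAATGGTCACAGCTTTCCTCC
Igkv3-2: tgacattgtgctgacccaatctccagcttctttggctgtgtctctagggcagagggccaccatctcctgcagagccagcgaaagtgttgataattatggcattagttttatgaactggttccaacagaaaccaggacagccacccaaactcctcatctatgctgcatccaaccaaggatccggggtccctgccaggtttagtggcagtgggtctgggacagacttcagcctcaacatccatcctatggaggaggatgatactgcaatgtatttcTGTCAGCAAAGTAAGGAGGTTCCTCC
Igkv3-4: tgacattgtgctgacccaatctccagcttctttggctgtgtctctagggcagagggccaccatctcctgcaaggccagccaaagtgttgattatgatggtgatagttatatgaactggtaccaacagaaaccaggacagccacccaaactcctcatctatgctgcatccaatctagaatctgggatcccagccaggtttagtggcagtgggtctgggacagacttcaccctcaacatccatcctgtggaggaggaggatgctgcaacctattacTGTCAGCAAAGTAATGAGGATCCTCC
Igkv17-127: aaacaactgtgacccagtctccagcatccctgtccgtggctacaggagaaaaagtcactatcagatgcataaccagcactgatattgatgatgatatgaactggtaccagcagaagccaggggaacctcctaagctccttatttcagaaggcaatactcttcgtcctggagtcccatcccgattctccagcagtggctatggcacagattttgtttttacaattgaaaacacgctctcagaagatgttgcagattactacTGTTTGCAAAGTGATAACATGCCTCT

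These sequences show how far these segments can be told apart by reads. Igkv3-2 and Igkv3-4, of family 3, were identical at 91.3% of aligned V exon positions and shared a run of up to 73 bases, whereas Igkv5-39 shared 62.6% with Igkv3-2 and no run above 11 bases. The closest relative of Igkv5-39 was Igkv5-45 (88.3% identity, longest shared run 49 bases), and that of Igkv17-127 was Igkv17-121 (96.2%, 143 bases). Over the 101 segments, identity to the closest relative had a median of 92.9%, and 14 segments shared a run of at least 100 bases with theirs, such as Igkv3-5 with Igkv3-10 (159 bases). Counts of such pairs are uncertain, because the fragments sequenced were about as long as these runs and how the authors' counting split ambiguous reads is not given in the sources used here. The mice are of another strain background than the reference, and variable segments mutate in B cells, so some reads may have been counted for a relative. The V exons were 284 to 321 bases long, and dividing by transcript length left at least 4 of the 5 leading segments in each group, although in the kidney Igkv5-39 then came before Igkv1-110.

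Kappa variable reads were scarce in kidney tissue and abundant in TLS and lymph nodes. They made up 0.291% of the reads in the kidney of H6 (95% Wilson interval 0.273 to 0.309), 0.344% in H20, 0.0350% in H115 and 0.0944% in H117, which is 1008, 1252, 128 and 356 reads. In the TLS they made up 9.50% in H6, 7.27% in H20 and 2.42% in H115, and in the lymph nodes of proteinuric mice 9.16% in H6, 7.97% in H20 and 8.51% in H117. Every TLS library thus lay above every kidney library, and the TLS of H115 lay below all lymph nodes. The antibody-positive nodes held 9.94% (D10), 6.87% (D11) and 6.95% (L25), and the young node held 8.59%, so the node of a 4-week-old mouse lay inside the range of the older ones. Within a mouse, Igkv reads per normalized library were 35.9 times higher in TLS than in kidney in H6, 20.5 times in H20 and 79.0 times in H115.

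**Figure D1:**
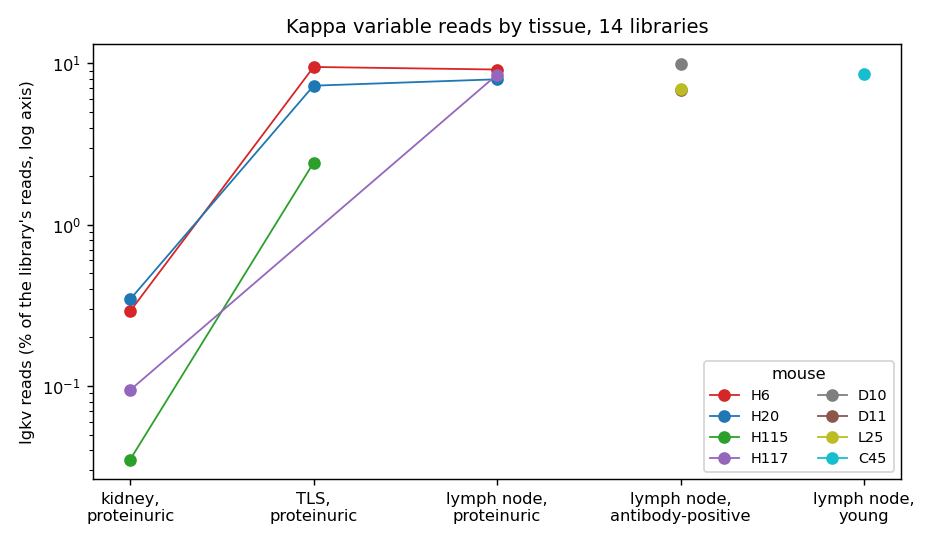
Igkv reads as a percentage of all reads of each library (log axis), by tissue and stage, with the libraries of a mouse joined by a line. The 4 kidney libraries lie between 0.0350% and 0.344% and the TLS and lymph node libraries between 2.42% and 9.94%.

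The depth and the cell type markers of the libraries bear on these shares. Libraries held 343825 to 443379 reads, of which nuclear and mitochondrial rRNA genes took 0.525% to 59.6%, the highest share in the kidney of H117. Of the reads outside rRNA genes, Igkv took 0.234% in that kidney and 3.21% in the TLS of H115. In H6 it took 13.6% in the node and 9.69% in the TLS, so the order of these 2 tissues changed. Summed normalized reads of 7 B-cell genes were 0 to 21.1 in kidney, 318 to 477 in TLS and 604 to 885 in nodes of proteinuric mice, and the kidney of H115 had no read of any of them. Summed reads of 7 plasma-cell genes were 48.7 to 148 in kidney, 828.7 to 1662 in TLS and 1297 to 2792 in those nodes, and summed reads of 8 nephron genes were 5845 to 18074, 1658 to 7476 and 0 to 1.89. B-cell and plasma-cell genes were thus lowest in kidney, as the Igkv reads were, and nephron RNA was present in the TLS but near 0 in the nodes. B-cell reads ranked the mice as the Igkv reads did in the TLS, but not in the kidneys or the proteinuric nodes. The proteinuric node of H6 had the fewest B-cell reads (604) but the most normalized Igkv reads (57864.5). Plasma-cell reads ranked the mice as the Igkv reads did in these nodes and in the TLS, but not in the kidneys. The part of these genes in the Igkv differences was not tested.

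Kidney tissue and TLS were compared across all genes to ask which segments differ between the aggregates and the rest of the same organ. Of the 107 segments, 94 passed the filter on low values, 70 of these were higher in TLS and none in kidney at an adjusted p under 0.05 in limma, against 8.62% of all 7382 tested genes that were higher in TLS. The fitted log2 fold change of kidney over TLS had a median of -4.34 over the 94 segments and 0.01 over all genes, and all 94 values were negative, from -5.94 to -0.15. Since 27 segments had at most 3 reads in every kidney library (or in every TLS library), the median was also taken with those at the bound that 3 reads allow, where it was -4.31. The 24 segments that did not pass had log2 fold changes of -3.51 to -0.15 and were read less in the TLS, with a median of 12.9 normalized reads against 217 for the 70 that passed. The 13 segments outside the filter held 488 Igkv reads (0.158%) over the 14 libraries.

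The segments with the steepest TLS difference came from 3 families. Igkv9-120 had 4.42, 11, 0 and 0 normalized reads in the kidneys of H6, H20, H115 and H117 and 348, 244 and 277 in the TLS of H6, H20 and H115 (log2 fold change -5.94 ± 0.59 SE, limma adjusted p = 7.72e-05). Its TLS libraries were close to each other and none overlapped with the kidneys. Igkv8-19 had 0, 5.06, 1.16 and 26.6 in the kidneys and 773, 197 and 194 in the TLS (-5.71 ± 1.19, adjusted p = 0.0103), and this call was lost with the mouse as a term (adjusted p = 0.0887) and without the TLS of H6 (adjusted p = 0.0567). Igkv17-127 had 5.30, 45.5, 0 and 1.77 in the kidneys and 276, 1941 and 110 in the TLS (-5.69 ± 1.10, adjusted p = 0.00663). For this segment H20 was the highest mouse in both tissues.

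**Figure D2:**
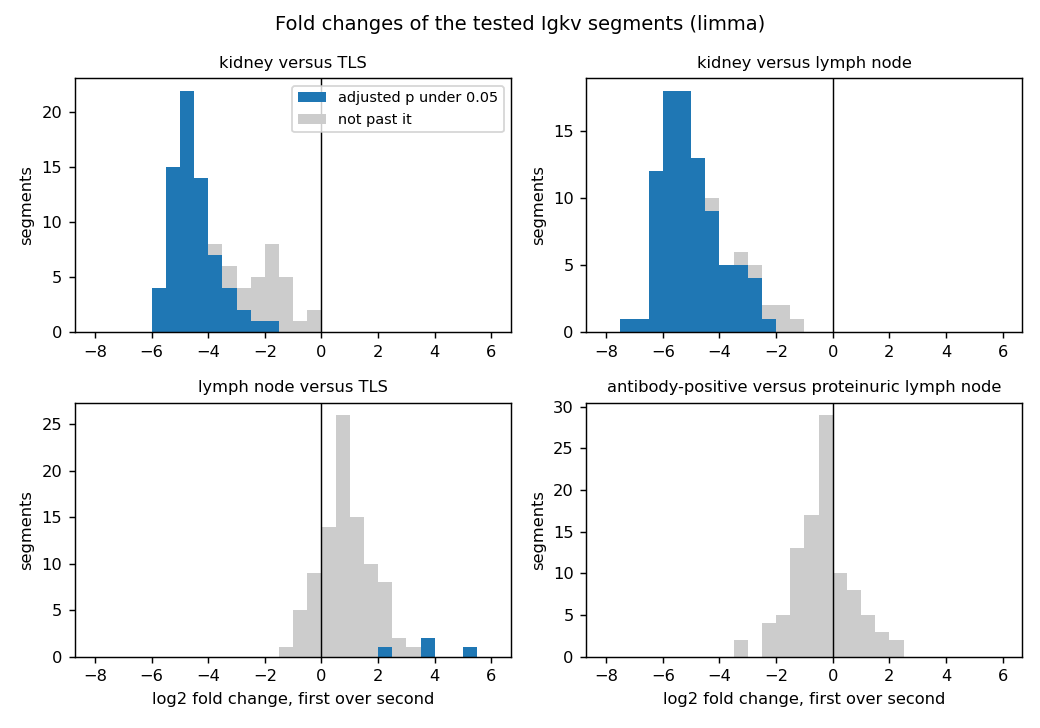
Numbers of tested Igkv segments by log2 fold change (limma, first group over second) in the 4 comparisons, with segments past an adjusted p of 0.05 in blue. All values lie below 0 for kidney versus TLS and kidney versus lymph node, whereas the other 2 comparisons have values on both sides of 0.

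Against the lymph nodes the kidney differed in the same direction. Of the 94 tested segments, 87 were higher in the nodes of proteinuric mice and none in the kidney, against 20.8% of all tested genes that were higher in node, with a median log2 fold change of -5.07 (-4.98 with segments of at most 3 reads at their bound) and of -0.05 over all genes. Both kidney comparisons share the 4 kidney libraries. Igkv5-39 had the steepest difference, with 8.84, 108, 12.7 and 17.7 normalized reads in the kidneys of H6, H20, H115 and H117 and 5633, 3865 and 2936 in the nodes of H6, H20 and H117 (-7.35 ± 0.76 SE, limma adjusted p = 1.15e-05). Igkv3-5 had 0 to 18.6 in kidney and 640 to 1294 in node (-6.70 ± 0.73, adjusted p = 1.80e-05). Igkv4-57 had 0 to 10.1 in kidney and 305 to 810 in node (-6.46 ± 0.61, adjusted p = 4.94e-06). The 7 segments that did not pass were all lower in kidney in the fit, from -4.08 for Igkv12-38 to -1.16 for Igkv4-56_2.

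Lymph node and TLS differed in few segments. Of the 94 tested, 4 were higher in the nodes and none in the TLS, against 1.69% of all tested genes that were higher in node and 8.87% that were higher in TLS. The median log2 fold change of node over TLS was 0.86 over the segments and 0.04 over all genes, 79 values were positive and 15 negative, and 18 segments were higher in node at an unadjusted p under 0.05. Without single libraries the number called was between 1 and 10, with 1 left without the node of H117, 2 without the node of H6, the TLS of H115 or the kidney of H6, 7 without the TLS of H20 and 10 without the TLS of H6. The absence of a call for the other 90 segments does not show that they were equal.

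The 4 segments called in the nodes were all little used. Igkv14-130 had 219, 18.0 and 210 normalized reads in the nodes of H6, H20 and H117 and 0, 4.72 and 0 in the TLS of H6, H20 and H115 (log2 fold change 5.06 ± 0.81 SE, limma adjusted p = 0.00181). Its kidney libraries had no read, although H6 had 151 reads in the node of the same mouse. In the other nodes it had 0 (D10), 29.5 (D11), 12.6 (L25) and 97.5 (C45). Igkv4-62 had 24.6, 9.47 and 83.4 in the nodes and 1.70, 0 and 0 in the TLS, at least 12-fold higher in node when the TLS is set to 3 reads in its shallowest library (adjusted p = 0.00247, and 0.0609 without the node of H117). Igkv2-112 had 49.3, 16.1 and 14.6 in the nodes and 8.48, 7.07 and 0 in the TLS (2.11 ± 0.60, adjusted p = 0.0418), a call that most alternatives did not keep. Igkv4-69, named here because it is the only other segment called, had 146, 11.4 and 97.9 in the nodes and 16.1, 1.57 and 0 in the TLS, with overlapping libraries (3.54 ± 0.91, adjusted p = 0.0309).

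No segment passed the test between the nodes of antibody-positive and proteinuric mice. None of 98 tested segments and none of 6810 genes passed in limma or in edgeR's quasi-likelihood test, and DESeq2 called 13 genes, none of them a segment. At an unadjusted p under 0.05, limma had 5 segments higher and 9 lower in the antibody-positive nodes, against 3.16% of all genes in either direction. Igkv11-125, for example, had 63.0, 94.2 and 95.2 normalized reads in D10, D11 and L25 and 13, 36.9 and 12.1 in H6, H20 and H117 (log2 fold change 2.06 ± 0.44 SE, limma adjusted p = 0.526), and Igkv17-127 had 414, 99.9 and 280 against 500, 980 and 507 (-1.46 ± 0.59, adjusted p = 0.998). These groups do not overlap, but neither segment passed the adjustment. The median over the segments was -0.34, against 0.08 over all genes. Without the proteinuric node of H6 it was -0.01, with 8 segments higher and 1 lower at an unadjusted p under 0.05, so the lower side rested on that library. Without D11 limma called 5 genes, none of them a segment.

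Within the Igkv reads, Igkv5-39 was the leading segment of the lymph nodes. It took 9.73% of the Igkv reads in the node of H6, 12.9% in H20 and 12.4% in H117 (mean 11.7% ± 1.71, SD, n = 3), 15.3% in D10, 19.4% in D11 and 16.4% in L25 (17% ± 2.11, n = 3), and 11.4% in the young node C45. It ranked first of 107 in all 7 nodes but that of H6, where it ranked second after Igkv3-2. In the TLS it took 1.70% in H6, 9.18% in H20 and 3.69% in H115 (4.86% ± 3.87, n = 3), and in the kidneys 0.992% in H6, 10.2% in H20, 8.59% in H115 and 2.81% in H117 (5.65% ± 4.45, n = 4). All antibody-positive nodes lay above all proteinuric nodes, and the renal libraries reached the range of the nodes only in mouse H20 (kidney 10.2%). In mouse H6 the share in the node was 9.73% when that in the TLS of the same mouse was 1.70%. On normalized reads, node over TLS had a log2 fold change of 2.36 ± 0.81 SE, which did not pass (limma adjusted p = 0.0949).

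Other segments were high in single mice. Igkv3-2 took 12% in the kidney, 15% in the TLS and 13.3% in the node of H6, and at most 3.72% in the 7 other libraries of proteinuric mice. Of the nodes of other mice, D10 had 11.5%, whereas D11 had 2.10%, L25 3.35% and C45 1.04%. The kidney of H115 had no Igkv3-2 read among 128, which by the floor of 3 reads allows a share of up to 2.34%. High use of this segment therefore ran through all 3 tissues of H6 and was seen in 1 of the 4 nodes of the other stages.

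Igkv3-4 had this pattern in mouse H115, whose lymph node was not sequenced here. It took 10.9% in the kidney (95% Wilson interval 6.63 to 17.5, 14 of 128 reads) and 13.2% in the TLS of H115, and 0.661% to 3.57% in the 8 other libraries of proteinuric mice. Among the antibody-positive nodes L25 had 8.60%. Igkv17-127 had it in mouse H20, with 4.31% in the kidney, 8.96% in the TLS and 3.28% in the node, and 0% to 2.14% in the 7 other libraries. Its relative Igkv17-121, with which it shares a long run, was also highest in the TLS of H20 (2.14%), and reads of the pair may be split between them.

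Igkv1-110 led the kidneys on average (6.61% ± 4.29, SD, n = 4), but its 4 values were spread, with 2.28% in H6, 6.31% in H20, 12.5% in H115 (16 of 128 reads) and 5.34% in H117. It took 3.28%, 4.28% and 5.06% in the TLS of H6, H20 and H115 and 4.01%, 5.15% and 3.06% in the nodes of H6, H20 and H117, and the tissues overlapped.

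In all, 12 segments had a higher share in every library of a mouse than in every library of the other proteinuric mice. A share of Igkv reads has no value for other genes, so this count has no background over all genes and is a description. The segments were Igkv3-2, Igkv12-47_1, Igkv6-25 and Igkv8-30 in H6, Igkv17-127, Igkv1-122 and Igkv8-34 in H20, Igkv3-4, Igkv1-133, Igkv12-46 and Igkv2-137 in H115, and Igkv14-100 in H117. Igkv12-47_1 took 3.27%, 3.43% and 4.51% in kidney, TLS and node of H6 and 0.781% to 2.02% in the other libraries of proteinuric mice, but 4.47% in the young node. Igkv6-25 took 3.27%, 3.56% and 2.28% in H6 and at most 1.43% in all other libraries. Igkv14-100 took 3.93% in the kidney and 1.26% in the node of H117 and at most 0.754% in the other libraries of proteinuric mice, but 1.48% in the young node. The margins were narrow for Igkv1-122 (lowest own share 0.403%, highest other share 0.396%), Igkv12-46 (3.13% and 2.81%) and Igkv8-30 (1.78% and 1.56%). Few reads carried Igkv8-34 (3 to 10 reads in H20) and, in the kidney of H115 with 128 Igkv reads, Igkv12-46 (6 reads) and Igkv2-137 (1.56%). In the young node Igkv12-46 took 6.14%. These are therefore descriptions of single libraries.

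**Figure D3:**
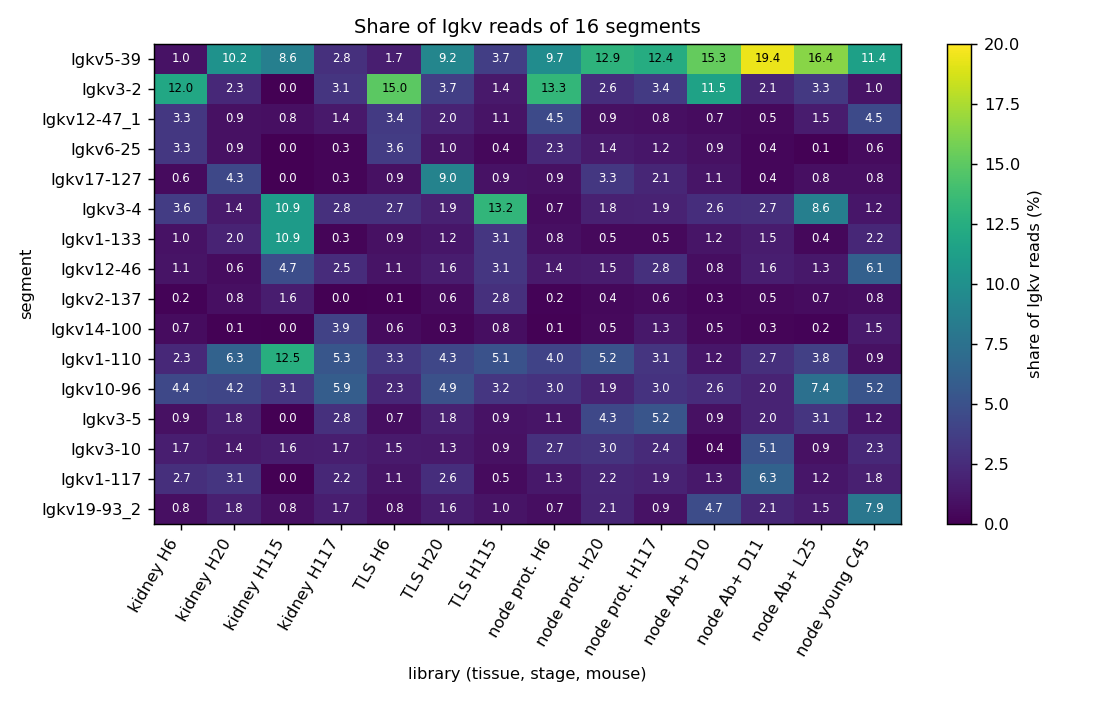
Share of Igkv reads (%) of 16 segments in the 14 libraries, by tissue, stage and mouse (prot., proteinuric; Ab+, anti-dsDNA antibody-positive). Igkv5-39 is high in all nodes (9.73% to 19.4%), Igkv3-2 in the 3 libraries of H6 and in D10, and Igkv3-4 in the 2 libraries of H115 and in L25.

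Differences between mice in normalized reads were tested across all genes, with mouse and tissue as terms, in the 10 libraries of proteinuric mice. The test was chosen after seeing these shares. Of the 94 segments, 3 passed the mouse term at an adjusted p under 0.05, against 0.122% of all 7382 genes, and 48 had an unadjusted p under 0.05, against 8.86%. The 3 were Igkv3-2 (limma F test, adjusted p = 0.0165), Igkv6-25 (adjusted p = 0.0165) and Igkv3-7 (adjusted p = 0.0355), and all genes that passed numbered 9. This test is on normalized reads and not on shares. Summed Igkv reads also differed between mice, with 31974, 21667 and 11716 normalized reads in the TLS of H6, H20 and H115. A mouse with more Igkv reads in all can be higher in many segments, so the test cannot separate total level from segment use. Of the 12 segments picked by share above, 11 were tested and 2 passed. The 9 others had adjusted p of 0.0798 (Igkv17-127) to 0.966 (Igkv3-4), among them Igkv1-133 (0.581), Igkv2-137 (0.801) and Igkv12-46 (0.947) of H115. Igkv3-7, of family 3, had 32.7, 1320 and 855 normalized reads in kidney, TLS and node of H6 and 0.843, 101 and 125 in those of H20, with H6 highest in each tissue. Leaving out single libraries left 0 to 14 segments called, with 0 without the kidney of H115 or any 1 of the 3 TLS, 1 without the kidney of H20, 9 without the kidney of H117 and 14 without the node of H117. After each tissue was centred, every library of H6 lay above all others for 17 of 94 segments, against 1.38% of all genes, and every library of H20 for 5, against 1.37%. For H115 and H117, with 2 libraries each, this held for 0 segments against 11.4% of all genes and for 1 against 0.393%. These counts are also on levels and not on shares. H6 had the most normalized Igkv reads in TLS and node, and H115 the fewest in kidney and TLS. By share, 4 segments were listed above for each of these 2 mice.

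Overlap of segment use, the sum over segments of the smaller of the shares in a pair of libraries, was compared within and between mice. For 8 pairs of tissues from the same mouse it was 69.4% ± 7.33 (SD, 54.8% to 75.1%), for 25 pairs of different tissues from different mice 55.0% ± 7.78 (39.1% to 74.2%), and for 12 pairs of the same tissue from different mice 55.5% ± 10.2 (37.3% to 76.6%). Kidney and TLS of the same mouse overlapped by 72.2% in H6, 74.6% in H20 and 62.1% in H115, above the 9 pairs that set the kidney of a mouse against the TLS of another (at most 58.2%). TLS and lymph node overlapped by 74.4% in H6 and 75.1% in H20. Pairs share libraries and are not independent, so no test is given.

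Among libraries of other tissues, the one with the highest overlap came from the same mouse for 8 of the 10 libraries, with the kidney and the lymph node of H117 as exceptions. With libraries of the same tissue included this held for 7, since the nodes of H20 and H117 overlapped most with each other. The kidney of H117 overlapped by 54.8% with the node of H117 and by 62.2% with that of H20, and the node of H117 overlapped by 74.2% with the TLS of H20. The nodes of H20 and H117 overlapped by 76.6%, the highest value of all 45 pairs. The kidney of H117 had 356 Igkv reads, the node of H117 29268 and the kidney of H115 128. The kidney of H115 overlapped most with the TLS of H115 (62.1%). Few reads can lower an overlap by counting error, but the part of depth in these values was not tested.

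**Figure D4:**
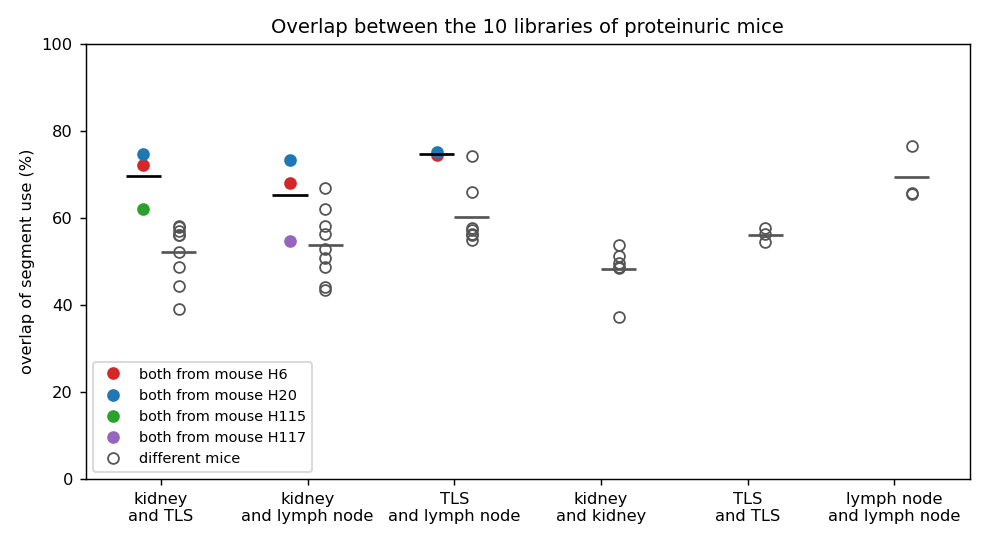
Overlap of segment use (%) for all pairs of the 10 libraries of proteinuric mice, by tissue pair, with pairs from the same mouse as filled points, pairs from different mice as open points and means as lines. Kidney and TLS pairs from the same mouse (62.1% to 74.6%) lie above those from different mice (at most 58.2%), whereas kidney and node of H117 (54.8%) lie within the range of different mice.

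Family shares did not always follow those of their leading segments. In the kidney of H117, family 5 took 14.3% and Igkv5-39 2.81%. In the node of D11, family 3 took 19.4% and Igkv3-2 2.10%. Family 3 took 23.4%, 26.7% and 21.8% in kidney, TLS and node of H6, 11.2%, 12.7% and 16.3% in those of H20, and 18.0% and 21.7% in kidney and TLS of H115. It was the largest family on average in kidney (17% ± 5.11, SD, n = 4), TLS (20.4% ± 7.11, n = 3) and proteinuric nodes (19.1% ± 2.78, n = 3), and took 18.8% ± 0.619 in the antibody-positive nodes (n = 3) but 8.71% in the young node. Family 5, which holds Igkv5-39, was the largest in the antibody-positive nodes (19.5% ± 2.11, n = 3). Family 5 took 2.88% and 3.39% in the kidney and TLS of H6 but 12.2% in its node, and 15.5%, 14.5% and 17.9% in kidney, TLS and node of H20. H6 thus differed from H20 in its renal libraries more than in its node.

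Other families were high in single libraries or in the libraries of a mouse. Family 17 took 11.1% in the TLS of H20 and at most 4.79% elsewhere, and family 1 took 23.4% and 20.6% in the kidneys of H115 and H20 and 6.53% to 14.8% in the 12 other libraries. Family 4, which has the most segments, took 9.06% to 19.4% in the 14 libraries, with the highest values in kidney, TLS and node of H6. The young node had the highest share of family 12 (16.3%, others at most 11.9%) and of family 19, a single segment listed as Igkv19-93_2 (7.92%, others at most 4.67%). With 1 young library these values have no replicate check.

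**Figure D5:**
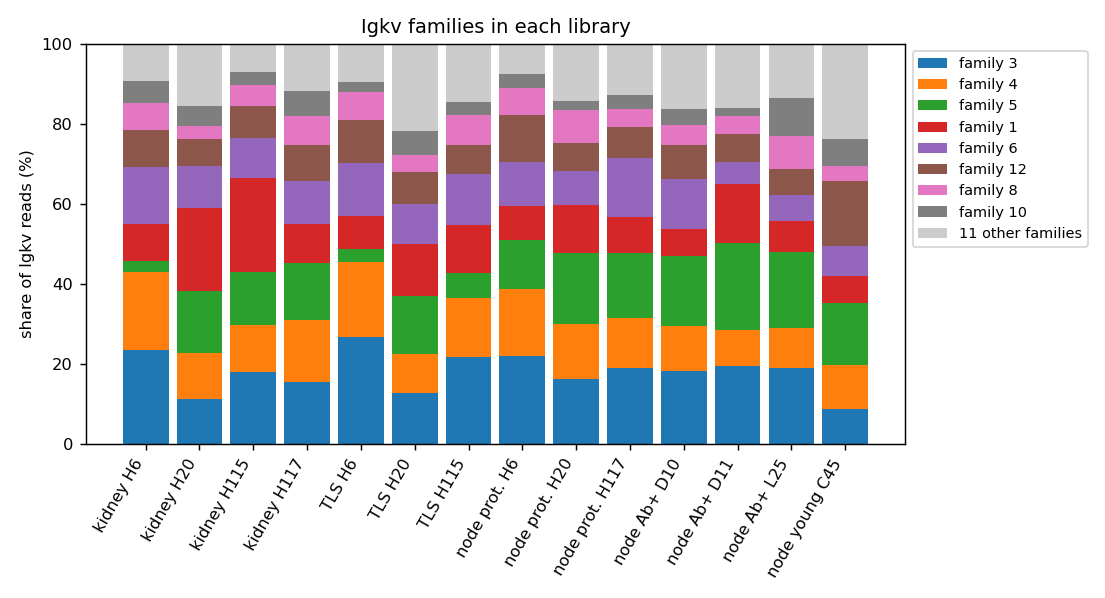
Share of Igkv reads (%) of the 8 families with the most reads and of the 11 other families together, in each of the 14 libraries. Family 3 ranges from 8.71% in the young node to 26.7% in the TLS of H6, and family 5 is lowest in the kidney and TLS of H6 (2.88% and 3.39%).

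The spread of use over segments overlapped between the tissues of proteinuric mice. The effective number of segments, the number of equally used segments that would give the same chance of drawing the same segment in 2 draws, was 27.6, 29.1, 17.1 and 30.1 in the kidneys of H6, H20, H115 and H117, 23.9, 31.0 and 26.6 in the TLS of H6, H20 and H115, and 24.0, 28.2 and 29.7 in the nodes of H6, H20 and H117. It was 19.5, 17.8 and 19.3 in the antibody-positive nodes, below every proteinuric node, and 27.0 in the young node. The kidney of H115, with 128 Igkv reads, was the lowest library. Without the leading segment of each library the means were 29.5 in the antibody-positive and 37.8 in the proteinuric nodes, and the kidney libraries held 26 to 70 segments with a read against 81 to 101 in TLS and nodes. The numbers of segments with a read depend on the number of Igkv reads. At 128 Igkv reads per library, the number expected was 45.2, 42.2, 26 and 39.4 in the kidneys of H6, H20, H115 and H117, 44.5 to 48.2 in the TLS and 43.1 to 48.6 in the nodes. The kidney of H115 thus remained the lowest library at equal depth.

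By position in the locus, segments numbered 1 to 45, the part next to the joining segments, took 45.8% ± 3.31 of the Igkv reads in kidney (SD, n = 4), 48.9% ± 5.88 in TLS (n = 3), 53.9% ± 2.26 in proteinuric nodes (n = 3) and 54.6% ± 3.12 in antibody-positive nodes (n = 3), and 38.8% in the young node, the lowest of the 14. Kidney libraries (41.9% to 49.5%) lay below both groups of older nodes (51.4% to 58.2%), and TLS (42.6% to 54.2%) overlapped with both. This part of the locus holds Igkv5-39, which took 9.73% to 19.4% in the nodes and 0.992% to 10.2% in the kidneys. Its part in the difference was not tested. With positions 1 to 70, kidneys (55.6% to 69.5%) overlapped with proteinuric (67.8% to 74.8%) and antibody-positive nodes (62.2% to 67.4%). Segments numbered 91 or more took 41.0% in the TLS and 39.5% in the kidney of H20, the mouse with high Igkv17-127, and 18.8% in the TLS of H6.

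No difference in the constant segment passed the test in any comparison. Igkc, which every complete kappa RNA carries, had 108 to 552 reads in the 14 libraries, and its normalized reads were 229 ± 104 in kidney (SD, n = 4) and 305 ± 114 in TLS (n = 3; log2 fold change -0.46 ± 0.45 SE, limma adjusted p = 0.560), when summed Igkv reads were 682 ± 396 and 21786 ± 10129. There were 1.19 to 5.09 Igkv reads per Igkc read in the kidneys and 26.8 to 169 elsewhere. Of the joining segments, Igkj1, Igkj2, Igkj4 and Igkj5 were in the table and had 0 to 150 reads in all per library. Igkj1 was higher in node than in TLS (3.38 ± 0.81, limma adjusted p = 0.0200) and than in kidney (adjusted p = 0.00319). Igkj2 was higher in node than in kidney (-2.31 ± 0.79 for kidney over node, adjusted p = 0.0331). Its libraries overlapped, with 0 reads in the kidneys and 0 to 29 in the nodes. How reads of Igkc were counted is not given in the sources used here, and its part in these ratios was not tested.

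Of 10 transcription factors of kappa expression 8 were tested. In limma, 6 were higher in TLS than in kidney (8.62% of all genes), 8 were higher in node than in kidney (20.8%), and 3 were higher in node than in TLS (1.69%). Pou2af1, a coactivator of immunoglobulin promoters, had 0.211 ± 0.422 normalized reads in kidney (n = 4), 48.1 ± 14.3 in TLS (n = 3) and 103 ± 14.5 in proteinuric nodes (n = 3), with a log2 fold change of -4.37 ± 0.30 SE for kidney over TLS (adjusted p = 2.88e-05). Irf4, which drives plasma cell formation and binds the kappa enhancer, had 0.211 ± 0.422, 13.3 ± 9.29 and 20.4 ± 3.90 (kidney over TLS, adjusted p = 0.00154). Spi1, which is also a macrophage factor, and Tcf3 did not pass between kidney and TLS (adjusted p = 0.0699 and 0.0840).

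Genes of recombination were near the limit of detection. Rag1 and Rag2, which cut the locus for recombination, were not among the genes of the table, and of the 7 genes of recombination and end joining only Xrcc5 was tested in the proteinuric tissues, where it was higher in kidney than in node (1.17 ± 0.37 SE, limma adjusted p = 0.0217). None of the tested transcription factors and recombination genes passed between antibody-positive and proteinuric nodes.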

How the data were processed

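RNA of 14 libraries was measured. Per the paper's methods and the labels, poly(A) RNA was sequenced on an Ion Torrent PGM, and reads were trimmed and counted in CLC Genomics Workbench 8 against GRCm38 (Ensembl release 80). The authors deposited 1 signal per gene and library, in which 1 was added to each read count before division by a DESeq size factor. Reads were recovered as the value over the column minimum, minus 1 (100% whole within 0.001), and normalized reads are reads over the size factor. The libraries held 343825 to 443379 reads. The lowest chi-square per degree of freedom between replicates was 5.92, so all libraries were counted separately.

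Segments were all symbols that begin with Igkv and a digit. The members, the gene lists and the rules were chosen with earlier results of these data known. Shares have 95% Wilson intervals, which cover counting error only, and a floor of 3 reads. Differences were tested with limma 3.58.1 (trend, robust; R 4.3.3) on log2(value + 1), for genes whose mean value reached 5, with Benjamini-Hochberg adjustment over all of them. The 10 libraries of proteinuric mice shared a fit, and the 6 older lymph nodes had their own. Fold changes are on this scale, which understates those of low genes. The scripts were tested on simulated data.

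Named were the 5 segments with the highest mean share in each group, segments of at least 10% of a library's Igkv reads, and per comparison and direction the 3 called segments with the largest fold change whose libraries did not overlap. The segments high in single mice, Igkv4-69, Igkv3-7, Igkv11-125 and Igkv17-121 were named after their values were seen. The mouse numbers pair the tissues, since they mark animals. Correlations of the deviations of kidney and TLS of a mouse were 0.351, 0.364 and 0.454 over all genes. Those of its node with its kidney (-0.326, 0.202 and -0.335) or TLS (-0.266 and 0.025) were lower. Pairs of different mice reached 0.361 for kidney and TLS (H117 and H115) and 0.512 for kidney and node (H117 and H6). The pairing thus rests on the animals and not on these correlations. Alternatives were edgeR 4.0.16 (TMM or DESeq2 size factors), DESeq2 1.42.0, no filter, a mean of at least 10, pseudocounts of 0.1 and 5, a mouse block, and leaving out each library. The mouse term and the count of segments above in a mouse were added after seeing the data. Sequences were aligned with Biopython 1.88. The result of 1 gene list is not reported here.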

Additional observations from a re-analysis of the deposited data

Results flagged for a closer look

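Among the 4 kidney libraries, 34 quantities (shares of the named segments and of families, the total share and the effective number) were each checked for a library far from the rest by Dixon's criterion, which chance passes in about 1 of 20 groups, and 3 passed it. Igkv1-133 took 10.9% of the Igkv reads in the kidney of H115 (14 of 128 reads) and 0.281% to 2.00% in the other kidneys. Igkv17-127 took 4.31% in the kidney of H20 and 0% to 0.595% in the others. Family 6 took 14.3% in the kidney of H6 and 10.2% to 10.7% in the others.

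The young lymph node, which entered no comparison, had 7.92% of its Igkv reads in Igkv19-93_2, against 0.726% to 4.67% in the 13 other libraries. This symbol was not found in the annotation, and a single library has no replicate check.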

How the results depend on the processing

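Of the main values recomputed under the alternatives, 144 stayed near the main result and 31 moved. Near meant within 1.5 times for numbers of segments called and within 1 SD for the other values. A reversal could be recorded only for the folds of the Igkv share between tissues and for the overlap difference, and none of these reversed. The numbers of segments called higher in TLS than in kidney (70; 57 to 80 without single libraries) and higher in node than in kidney (87; 81 to 89) stayed within 1.5 times under every alternative run. Node versus TLS (4 called) gave 2 with edgeR and TMM, 2 with DESeq2 and 8 with a pseudocount of 5, and 1 to 10 without single libraries. With the mouse as a replicate block 70, 4 and 89 segments were called for kidney versus TLS, node versus TLS and kidney versus node, and Igkv8-19 (adjusted p = 0.0887) and Igkv2-112 (adjusted p = 0.0972) lost their calls. The 3 segments called for the mouse term became 0 to 14 without single libraries. The nodes of antibody-positive mice gave 0 under all. Of the named segments' calls, 19 of 162 alternatives lost them, 15 for Igkv2-112. As a share of detected segments instead of reads, family 3 fell to 11.6% in kidney, 8.97% in TLS and 9.60% in node, and family 5 to 4.76% in antibody-positive nodes. By the exponential of the Shannon entropy the effective numbers were 33.8 in kidney, 44.1 in TLS, 45.9 in proteinuric and 37.4 in antibody-positive nodes, and without the leading segment 36.4 in TLS, 37.8 and 29.5. With the locus in 2 parts, positions 1 to 70 held 64.4% in kidney, 65.6% in TLS, 71.1% in proteinuric and 64.9% in antibody-positive nodes. The cause of each shift was not tested, apart from the change of quantity itself. The overlap within minus between mice (14.3 points) was 23.8 by Morisita's index, 6.49 over families, 10.5 without the leading segments and 12 to 17.6 without single libraries. Depth limits the kidney of H115 (128 Igkv reads) most.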
